A study of Mus musculus with 6 samples.

Results

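The glucocorticoid receptor and 6 genes tied to its action were examined in regulatory T cells (Tregs) of neonatal skin and of skin-draining lymph nodes (SDLNs). The 7 genes were chosen by name for their known roles, with no threshold on measured values but with earlier results of these data known. They are the receptor gene Nr3c1, the receptor co-chaperones Fkbp4 and Fkbp5, and the target genes Tsc22d3, Per1, Ddit4 and Sgk1, out of 49315 genes in the count table. All 7 passed the filter on low counts, which left 13572 genes for testing.

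Glucocorticoids are steroid hormones of the adrenal gland that restrain immune responses. The receptor waits in the cytoplasm in a complex with heat-shock proteins, and once hormone binds it moves to the nucleus, where it switches on genes through palindromic DNA elements and represses others, among them many cytokine genes. In T cells the receptor is known for curbing cytokine production and, in Tregs, for taking part in their control of inflammation.

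The data were bulk RNA-seq counts of 3 skin Treg and 3 SDLN Treg samples. All samples came from Foxp3-GFP mice, in which a fluorescent protein marks cells that express Foxp3, the transcription factor that defines Tregs. The study's methods give an age of 9 days, pools of 3 mice per sample, enzymatic digestion of the skin and sorting of viable CD4+ cells that carried CD45 and the reporter. All samples carried the same genotype and batch number in the labels, whose tissue field names skin for the SDLN samples too, so the groups were taken from the titles.

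The promoters of 4 members are shown because they hold the DNA elements through which the receptor or the circadian clock acts. Each is the stretch of 250 bases before a transcription start, read 5′ to 3′ on the gene's strand from RefSeq sequence on GRCm38.p6. Sgk1 lies at chr10:21993640-21993889 on the plus strand, and capitals mark a full receptor element. Tsc22d3 lies at chrX:140600523-140600772 on the minus strand, and capitals mark a single arm of that element. Fkbp5 lies at chr17:28486150-28486399 on the minus strand and Per1 at chr11:69098699-69098948 on the plus strand, and in both the capitals mark an E-box, the element bound by the clock activators.
Sgk1: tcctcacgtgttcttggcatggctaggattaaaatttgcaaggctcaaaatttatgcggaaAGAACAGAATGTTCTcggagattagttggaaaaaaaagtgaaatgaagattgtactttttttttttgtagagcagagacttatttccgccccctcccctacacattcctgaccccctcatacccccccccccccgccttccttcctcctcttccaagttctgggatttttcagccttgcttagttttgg
Tsc22d3: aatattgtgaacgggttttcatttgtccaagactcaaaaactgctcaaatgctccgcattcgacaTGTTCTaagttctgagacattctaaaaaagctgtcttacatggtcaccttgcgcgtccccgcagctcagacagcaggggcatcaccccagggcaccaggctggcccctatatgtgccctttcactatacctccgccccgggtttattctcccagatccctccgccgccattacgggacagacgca
Fkbp5: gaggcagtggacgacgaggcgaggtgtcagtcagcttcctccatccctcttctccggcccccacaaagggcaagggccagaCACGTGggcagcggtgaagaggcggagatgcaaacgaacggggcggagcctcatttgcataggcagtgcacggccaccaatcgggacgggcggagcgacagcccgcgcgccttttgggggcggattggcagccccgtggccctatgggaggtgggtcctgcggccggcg
Per1: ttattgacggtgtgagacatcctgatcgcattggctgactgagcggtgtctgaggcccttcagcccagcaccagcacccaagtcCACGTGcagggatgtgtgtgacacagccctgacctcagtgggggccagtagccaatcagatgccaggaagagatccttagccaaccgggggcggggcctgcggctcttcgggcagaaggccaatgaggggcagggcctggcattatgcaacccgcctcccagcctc

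The full receptor element searched was AGAACA and TGTTCT with 3 bases of any kind between them, read on both strands in windows from 250 bases before to 50 bases after a start. It occurred in 3 of 32851 windows (0.00913%), and 1 of these belonged to Sgk1, at position -189 from the start. A single arm, AGAACA, lies within the full element and occurred in 6233 windows (19.0%). Of the 14 windows of the 6 members with an entry, 4 held it, 3 of them at starts of Sgk1 and 1 at position -185 of Tsc22d3. The E-box CACGTG occurred in 2349 windows (7.15%) and in 1 window each of Fkbp5 (-169), Per1 (-166) and Sgk1 (-246), where it shares letters with a single arm. The cyclic AMP element TGACGTCA (588 windows, 1.79%) and the heat-shock element, GAA, TTC and GAA each 2 bases apart (198 windows, 0.603%) occurred in 0 member windows. No window was listed for Nr3c1. A match describes the letters only, and elements farther from the start were not searched.

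The libraries differed in depth and content. Total counts were 3748669 to 11741784 in skin Tregs and 47243498 to 116158706 in SDLN Tregs. A count of 0 is compatible with up to 3 counts, here called the floor, which was 0.255 to 0.8 counts-per-million (CPM) in the skin libraries and at most 0.0635 CPM in the SDLN libraries. This limit covers counting error only. Skin libraries also held fewer genes. Among the 1760 genes at 100 to 300 CPM in SDLN Tregs, 39.4%, 77.3% and 71.0% were over the floor in skin A, B and C, and 28.1% in all 3. The median log2 fold change (skin over SDLN) of all genes tested was -2.21. It was -1.29 with genes at the floor in a whole tissue set to that floor. Over the 1396 genes with at least 10 counts in every library it was -0.016. Values of the members are to be read against that shift and its dependence on genes at the floor.

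Markers of the sorted cells were unevenly detected in the skin libraries. Foxp3 counts were 0, 330 and 1 in skin A, B and C, while the SDLN libraries held 12208, 10133 and 1788. Cd4, the coreceptor used in the sort, had 0, 1861 and 2 counts in skin. Other markers were present in all 3, among them the Treg receptor gene Il2ra (2232, 1137 and 534 CPM in skin, 748 to 1330 in SDLN), the Treg factor gene Ikzf2 (110, 2330 and 1458 CPM, 865 to 1404 in SDLN) and the T cell receptor gene Trac (217, 944 and 973 CPM, 1204 to 1427 in SDLN). The CD3 genes went the other way, with every skin library below every SDLN library, as for 53.6% of all genes tested. Cd3d had 198, 355 and 276 CPM in skin and 677 to 926 in SDLN. Cd3e had 0, 150 and 293 CPM (578 to 1063 in SDLN), and Cd3g 888, 663 and 607 CPM (1132 to 1209 in SDLN). Of 9 T cell and Treg markers, all tested, 6, 9 and 7 were over the floor in skin A, B and C. The test called 1 higher in skin, Ctla4 (11.1%, beside 1.04% of all genes), and 0 higher in SDLN (beside 45.3%). Myeloid markers, which include the antigen-presentation genes Cd74 and H2-Aa, summed to 34722 to 60966 CPM in skin and 443 to 779 CPM in SDLN Tregs. Of these, 17 of 18 were tested and 15 were called higher in skin (88.2%, beside 1.04% of all genes tested). They include Cd209a (1017, 1195 and 1117 CPM in skin, 0.732 to 2.24 in SDLN) and Csf1r (42.9, 596 and 504 CPM, 0.835 to 4.44 in SDLN). The integrin gene Itgam was the 1 called higher in SDLN (5.88%, beside 45.3%). It had 0 counts in all 3 skin libraries and only 0.974 to 1.70 CPM in SDLN. Genes that respond to tissue digestion, such as Fos and Jun, summed to 4770 to 18910 CPM in skin and 1705 to 1850 CPM in SDLN. Of these, 7 of 16 were called higher in skin (43.8%, beside 1.04% of all genes). Both sums moved with tissue, and their part in the results given here was not tested. In bulk samples, fewer cells of a type and less RNA per cell cannot be told apart.

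**Figure D1:**
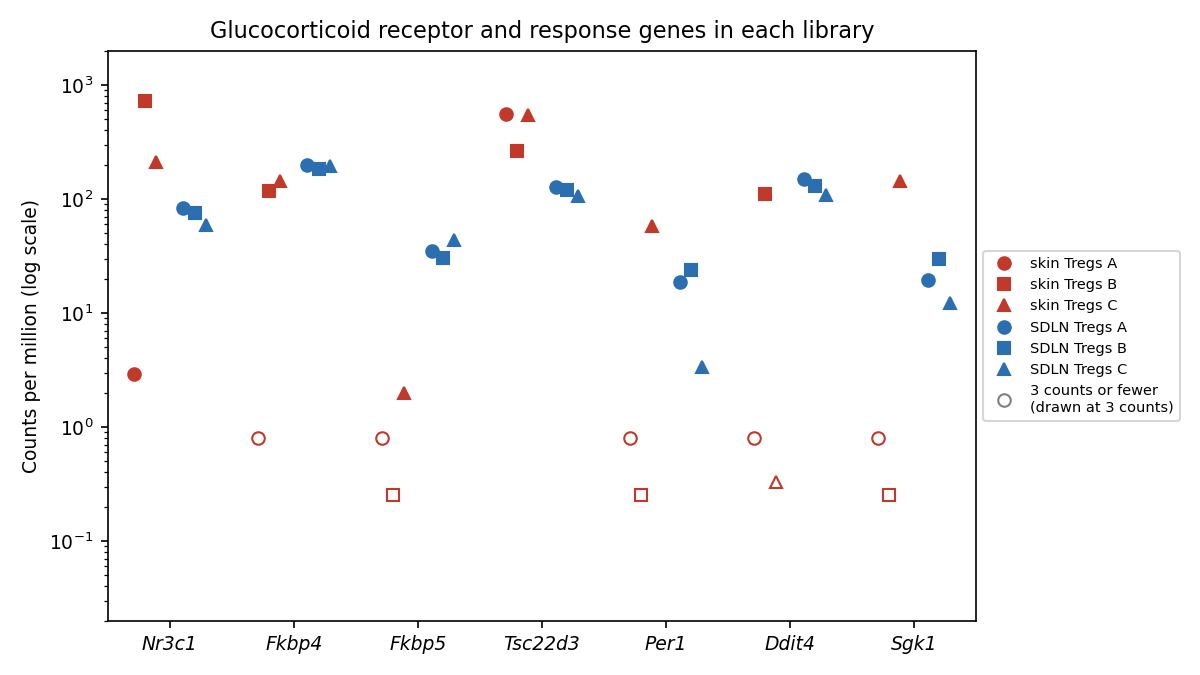
Counts-per-million (log axis) of the 7 members in each of the 6 libraries, with skin Tregs in red and SDLN Tregs in blue, letters A to C as circles, squares and triangles, and open symbols for values of 3 counts or fewer, drawn at 3 counts. The SDLN points of most genes lie close together, and in Tsc22d3 all 3 skin points (263 to 557 CPM) lie above all SDLN points (106 to 127 CPM).

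Across the members, 1 gene was called higher in skin Tregs (edgeR quasi-likelihood F test, adjusted p under 0.05), against 1.04% of all genes tested. None was called higher in SDLN Tregs by edgeR, against 45.3% of all genes. At an unadjusted p under 0.05, 0 members were higher in SDLN Tregs, against 46.6% of all genes. DESeq2 called 1 member higher in SDLN Tregs, against 51.9% of the genes it gave an adjusted p, and limma voom 2, against 51.6%. Members over the floor numbered 2, 4 and 6 in skin A, B and C and 7 in each SDLN library. The members' summed level was 560, 1224 and 1104 CPM in skin and 633, 594 and 528 CPM in SDLN Tregs.

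Nr3c1 encodes the receptor itself, the hormone-dependent transcription factor. It lies at chr18:39410545-39519421 on the minus strand (GRCm38, ENSMUSG00000024431). Its counts were 11, 8595 and 1904 in skin A, B and C, or 2.93, 732 and 211 CPM. The SDLN libraries held 9668, 5503 and 2802 counts, or 83.2, 75.6 and 59.3 CPM. Skin B and C were above all SDLN libraries and skin A was far below them, so the groups overlapped. The mean was 315 ± 376 CPM in skin and 72.7 ± 12.2 CPM in SDLN Tregs (SD, n = 3 each). The log2 fold change was 2.24 (SE 1.69) and did not pass edgeR's test (adjusted p = 0.424). Without skin A the log2 fold change was 2.66 and edgeR called the gene higher in skin (adjusted p = 0.0237). Skin B moved the value more, to 0.88 when it was left out (adjusted p = 0.751), and limma voom, which weights the libraries, gave 0.36 (adjusted p = 0.862).

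Several relatives and cofactors of the receptor were at the floor in skin. The mineralocorticoid receptor gene Nr3c2, whose product also binds glucocorticoids, had 0 counts in every skin library and 17, 113 and 100 counts in SDLN, too few to be tested. Of 8 genes of the steroid receptor family, 2 were tested and both were called higher in SDLN Tregs (beside 45.3% of all genes), among them Esrra (0, 0 and 2 counts in skin against 9.12 ± 0.883 CPM in SDLN). Among 16 receptor coregulators, all tested, 0 were called higher in skin by edgeR and 6 higher in SDLN, which is 37.5% beside 45.3% of all genes. These 6 include the acetyltransferase gene Ep300 (at most 3 counts in a skin library, 24.3 ± 11.4 CPM in SDLN). Its paralog Crebbp had 0 CPM in skin A, 678 in skin B and 1001 in skin C. Its SDLN mean was 417 ± 87.7 CPM, and it was not called (adjusted p = 0.927). The median log2 fold change of the coregulators was -0.97.

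Fkbp4 encodes a co-chaperone that helps the receptor bind hormone and travel to the nucleus. It lies at chr6:128429735-128438677 on the minus strand (ENSMUSG00000030357). Its counts were 0, 1380 and 1294 in skin, or 0, 118 and 143 CPM, and 23275, 13292 and 9242 in SDLN, or 200, 183 and 196 CPM. Every skin library was below every SDLN library, as for 53.6% of all genes tested. Mean levels were 86.9 ± 76.4 and 193 ± 9.21 CPM in skin and SDLN (mean ± SD, 3 libraries each), and the log2 fold change of -0.94 (SE 2.08) was not called by edgeR (adjusted p = 0.871). Without skin A, where the gene had 0 counts, the log2 fold change was -0.55 (adjusted p = 0.383). Larger values came from edgeR without skin C (-1.77, adjusted p = 0.652) and from limma voom (-3.67, adjusted p = 0.223).

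Fkbp5 encodes the related co-chaperone that lowers the receptor's affinity for hormone, and it is itself a receptor target. It lies at chr17:28399094-28517527 on the minus strand (ENSMUSG00000024222). Its counts were 0, 0 and 18 in skin and 4107, 2233 and 2072 in SDLN. In CPM this was 0, 0 and 1.99 against 35.4, 30.7 and 43.9. The 3 skin libraries were all below the SDLN libraries, and only skin C was over the floor. Mean levels were 0.664 ± 1.15 and 36.6 ± 6.68 CPM in skin and SDLN (mean ± SD, 3 libraries each). The fitted log2 fold change was -5.46 (SE 2.28), with an adjusted p of 0.116 by edgeR. DESeq2 (-5.49, adjusted p = 0.00118) and limma voom (-6.47, adjusted p = 0.0104) called it higher in SDLN Tregs. So did edgeR without skin C (-13.9, adjusted p = 0.00418), a fit against libraries at the floor and no measure of size. That fit called 7392 of 15913 genes higher in SDLN. Among the 3649 genes at 30 to 100 CPM in SDLN Tregs, 37.5% were over the floor in 1 skin library and 28.7% in 0. The promoter of Fkbp5 printed above holds an E-box. A small non-coding gene that overlaps it, Gm22146, reached at most 0.0412 CPM.

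The balance of the co-chaperones could be compared where Fkbp4 was detected. Per kilobase of exon, the ratio of Fkbp5 to Fkbp4 was 0.0521, 0.0496 and 0.0662 in SDLN A, B and C. It was 0 in skin B and 0.00411 in skin C, both below every SDLN library, and had no value in skin A.

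Among the chaperones and other co-chaperones of the receptor complex, 7 of 15 genes were over the floor in all 3 skin libraries. All 15 were tested, and 1 was called higher in skin and 1 higher in SDLN (6.67% each, beside 1.04% and 45.3% of all genes). Dnaja1, a partner of heat-shock protein Hspa8, rose to 732 ± 168 CPM in skin from 253 ± 49.4 CPM in SDLN, by 1.53 on the log2 scale (SE 0.452, adjusted p = 0.0341 by edgeR). Stub1, a ubiquitin ligase that removes chaperone clients, fell, with 0, 2 and 0 counts in skin against 84.2 ± 14.8 CPM. Hsp90ab1, the chaperone that holds the receptor ready for hormone, had 1619 ± 801 and 1779 ± 711 CPM (not called, adjusted p = 0.981). The list's median log2 fold change was 0.28. Among 14 other FKBP genes, 8 were tested, 0 were called higher in skin and 2 higher in SDLN (25.0%, beside 45.3% of all genes), Fkbpl and Fkbp11, both at 0 counts in every skin library. Fkbp1a, the most abundant of them, had 682 ± 265 CPM in skin and 417 ± 44.0 CPM in SDLN (not called, adjusted p = 0.346).

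Tsc22d3 encodes a leucine zipper protein, known as GILZ, that binds inflammatory transcription factors and is among the most direct readouts of the receptor in lymphocytes. It lies at chrX:140539528-140600659 on the minus strand (ENSMUSG00000031431). Its counts were 2087, 3089 and 4928 in skin A, B and C, or 557, 263 and 546 CPM. In SDLN A, B and C they were 14810, 8791 and 4988, or 127, 121 and 106 CPM. Every skin library was above every SDLN library, as for 2.39% of all genes tested, and skin B was the lowest of the skin libraries. Mean levels were 455 ± 166 and 118 ± 11.2 CPM in skin and SDLN (mean ± SD, 3 libraries each), a ratio of 3.86. The log2 fold change was 1.93 (SE 0.621, adjusted p = 0.0466 by edgeR), just inside the threshold. It kept its direction in 14 of 14 alternatives, with log2 fold changes of 1.39 to 2.18, and was called in 6 of them (adjusted p from 2.84e-05 to 0.426). The call was lost in 4 of the 6 fits that left out a library, without skin C (1.39, adjusted p = 0.115) and without SDLN A, B or C (adjusted p = 0.203, 0.164 and 0.150). It held without skin A (1.80, adjusted p = 0.0357) and without skin B (2.18, adjusted p = 0.0372).

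The skin pattern of Tsc22d3 can be set beside that of genes at the same SDLN level. Of the 1760 genes at 100 to 300 CPM in SDLN Tregs, 495 were over the floor in all 3 skin libraries, 70 (3.98%, beside 2.39% of all genes tested) had every skin library above every SDLN library, and 22 were called higher in skin. Fkbp4 and Ddit4 belong to the same range and were over the floor in 2 and 1 skin libraries. The ratio of Tsc22d3 to Nr3c1 per kilobase of exon was 2.71, 2.83 and 3.15 in SDLN Tregs and 336, 0.636 and 4.58 in skin A, B and C. Skin libraries fell on both sides of the SDLN values. The gene's relatives did not pass the test in either direction, with 4 of 5 TSC22 and SGK genes tested and 0 called by edgeR, beside 1.04% of all genes higher in skin and 45.3% higher in SDLN. Tsc22d4, for instance, had 198 ± 190 CPM in skin and 413 ± 88.6 CPM in SDLN (adjusted p = 0.210).

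Per1 encodes a repressor of the circadian clock that glucocorticoids induce directly. It lies at chr11:69095217-69109960 on the plus strand (ENSMUSG00000020893). Its counts were 0, 1 and 521 in skin and 2176, 1727 and 160 in SDLN, or 0, 0.0852 and 57.7 CPM against 18.7, 23.7 and 3.39 CPM. Skin C was the highest library of all, skin A and B were at the floor, and SDLN C was the lowest of its group. Mean levels were 19.3 ± 33.3 and 15.3 ± 10.6 CPM in skin and SDLN (mean ± SD, 3 libraries each). The log2 fold change of 0.71 (SE 2.49) was not called by edgeR (adjusted p = 0.931), and it turned to -8.13 without skin C (adjusted p = 0.0137), a fit against libraries at the floor and no measure of size.

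Sgk1 encodes a kinase that controls ion channels and cell survival, and its promoter printed above holds the full receptor element. It lies at chr10:21882184-21999903 on the plus strand (ENSMUSG00000019970). Its counts were 1, 1 and 1307 in skin and 2253, 2151 and 573 in SDLN, or 0.267, 0.0852 and 145 CPM against 19.4, 29.5 and 12.1 CPM. As with Per1, skin C was above all other libraries, skin A and B were at the floor, and SDLN C was the lowest of its group. Mean levels were 48.3 ± 83.4 and 20.4 ± 8.75 CPM in skin and SDLN (mean ± SD, 3 libraries each). The log2 fold change of 1.61 (SE 2.58) was not called by edgeR (adjusted p = 0.794). Without skin C it was -7.40 (adjusted p = 0.00418), again a fit against libraries at the floor. Of the 2680 genes at 10 to 30 CPM in SDLN Tregs, 28.0% were over the floor in 1 skin library and 4.44% in all 3.

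Ddit4 encodes a stress protein that restrains the growth kinase complex mTORC1. It lies at chr10:59949669-59951834 on the minus strand (ENSMUSG00000020108). Its counts were 0, 1301 and 0 in skin and 17265, 9517 and 5089 in SDLN, or 0, 111 and 0 CPM against 149, 131 and 108 CPM. Skin B reached the level of the SDLN libraries, between SDLN C and B, and skin A and C held no count. Mean levels were 36.9 ± 64.0 and 129 ± 20.5 CPM in skin and SDLN (mean ± SD, 3 libraries each). The log2 fold change of -1.74 (SE 2.91) was not called by edgeR (adjusted p = 0.805). Limma voom called the gene higher in SDLN Tregs (log2 fold change -8.47, adjusted p = 0.0160). So did edgeR without skin B (-15.7, adjusted p = 0.00656), a fit against libraries at the floor and no measure of size. That fit called 7787 of 15927 genes higher in SDLN.

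The order of the members' levels was set by CPM per kilobase of exon, since longer genes collect more reads. In SDLN Tregs it was Ddit4 (73.5 ± 11.7), Fkbp4 (69.0 ± 3.30), Tsc22d3 (27.2 ± 2.59), Nr3c1 (9.46 ± 1.59), Sgk1 (4.15 ± 1.78), Fkbp5 (3.87 ± 0.706) and Per1 (2.71 ± 1.88 CPM per kilobase, SD, n = 3). Ddit4 and Fkbp4 did not differ beyond their spread, nor did Sgk1, Fkbp5 and Per1. The order in skin differed between libraries. Tsc22d3 was the highest member in skin A (128 CPM per kilobase) and C (126), and Nr3c1 in skin B (95.3), followed there by Ddit4 (63.1) and Tsc22d3 (60.6).

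The genes most alike each member over the 6 libraries were found by Pearson's r of log2(CPM + 1) among genes of at least 10 CPM on average. With 6 points from 2 tissues of unequal depth, the values are a description. Tsc22d3 was most like Adam8 (r = 0.997), Lyn (0.993) and Wnk1 (0.990). Adam8, a membrane protease, had 337, 97.4 and 339 CPM in skin and 19.7 to 21.5 CPM in SDLN, and so shares the low value of skin B. Nr3c1 was most like Anxa6 (0.995), Hsf2 (0.994) and Map2k4 (0.992). Genes with r over 0.95 numbered 57 for Tsc22d3, 98 for Per1 and 146 for Nr3c1, but 446 for Sgk1, 783 for Fkbp4, 1033 for Ddit4 and 1943 for Fkbp5. The large groups shared a pattern of counts and zeros over the skin libraries, such as the zeros of Ddit4 and Slc25a12 in skin A and C. Among the members, Per1 and Sgk1 were the most alike pair (r = 0.972), while Tsc22d3 and Nr3c1 had r = -0.20.

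**Figure D2:**
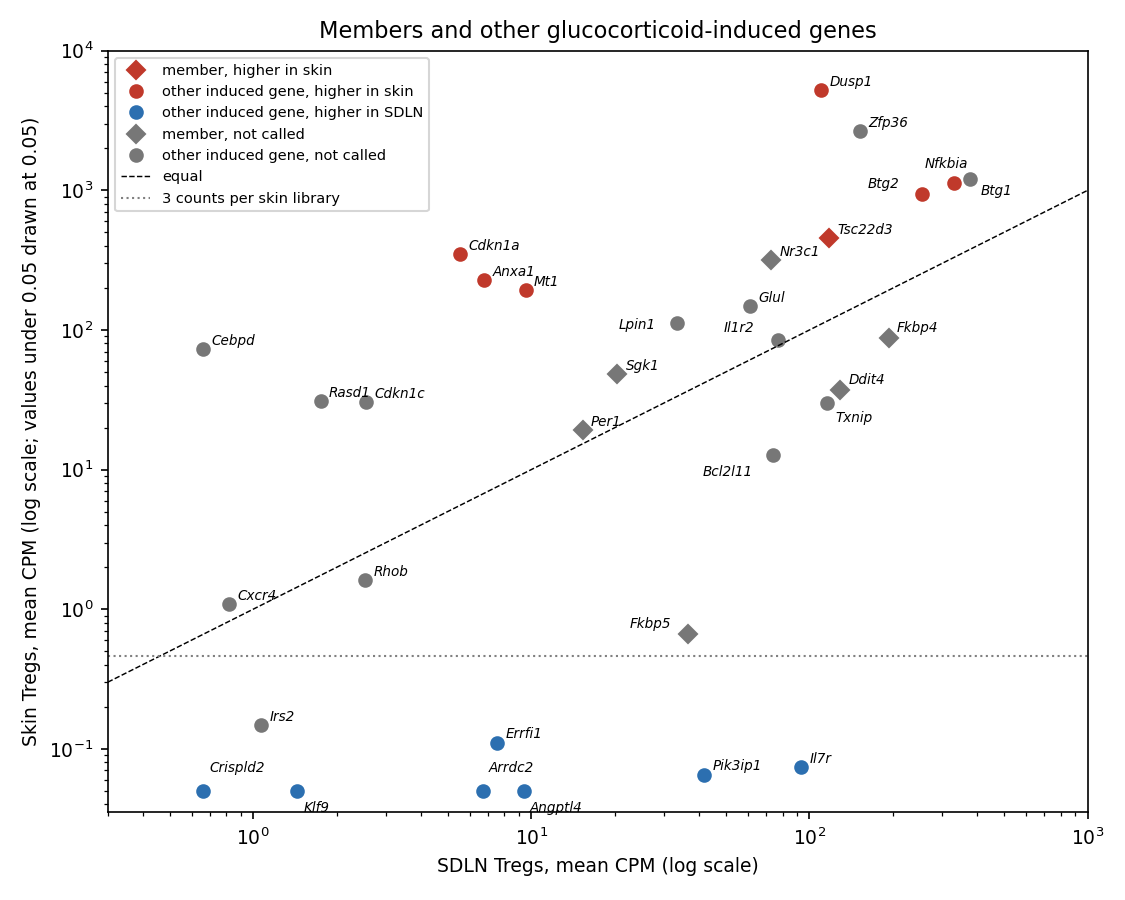
Mean CPM in skin Tregs against mean CPM in SDLN Tregs (both log axes, n = 3 libraries each) for the 7 members (diamonds) and the 26 tested genes of the list of other glucocorticoid-induced genes (circles), coloured by edgeR call, with means under 0.05 CPM drawn at 0.05. Genes called higher in skin lie above the line of equal level, up to Dusp1 at 5206 CPM in skin, and the 7 called higher in SDLN lie below the dotted line that marks 3 counts per skin library.

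The other genes that glucocorticoids are known to induce moved in both directions. Of 34 listed genes, 26 were tested, 6 were called higher in skin (23.1%, beside 1.04% of all genes) and 7 higher in SDLN (26.9%, beside 45.3%). The list's median log2 fold change was 0.95, beside -2.21 over all genes, or -1.29 with genes at the floor in a whole tissue set to it. Its summed level was 19263, 9625 and 9033 CPM in skin and 1759 to 1804 CPM in SDLN, the skin sum being highest in library A, as were the myeloid and digestion sums. Many of these genes also respond to other signals, and the lists do not separate those inputs.

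Dusp1, a phosphatase that switches off MAP kinases, was the most abundant gene called. It had 27981, 46894 and 37586 counts in skin, or 7464, 3994 and 4161 CPM, against 115, 102 and 114 CPM in SDLN. The groups lay far apart, with a log2 fold change of 5.46 (SE 0.240, adjusted p = 0.00322 by edgeR). Cdkn1a, a cell-cycle inhibitor, had 504, 193 and 351 CPM in skin and 2.57, 4.20 and 9.84 CPM in SDLN, a log2 fold change of 5.87 (SE 1.13, adjusted p = 0.00721). Anxa1, an anti-inflammatory annexin, had 158, 393 and 132 CPM in skin against 8.32, 8.43 and 3.56 CPM (5.10, SE 1.24, adjusted p = 0.0164). Mt1, a metal-binding protein, also rose (4.19, SE 1.23, adjusted p = 0.0332). With all libraries drawn down to the smallest total, the calls of Cdkn1a, Anxa1 and Mt1 were lost and that of Dusp1 held.

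Nfkbia, the inhibitor that keeps NF-κB in the cytoplasm, rose from 330 ± 38.3 CPM in SDLN to 1133 ± 159 CPM in skin (log2 fold change 1.75, SE 0.333, adjusted p = 0.00710 by edgeR). Btg2, an antiproliferative gene, rose as well (log2 fold change 1.69, SE 0.455, adjusted p = 0.0241). Both calls were lost without a filter and with at least 10 counts in every library. That of Btg2 was also lost without any one of the SDLN libraries. Zfp36, which speeds the decay of cytokine messengers, had 6063, 1872 and 87.9 CPM in skin against 170, 235 and 49.8 CPM in SDLN, overlapping between groups and not called (adjusted p = 0.0638). Btg1 had every skin library above the SDLN libraries (1209 ± 557 against 379 ± 131 CPM) and was not called by edgeR either (adjusted p = 0.0774). DESeq2 called both Zfp36 and Btg1 higher in skin, and edgeR called Btg1 with DESeq2 size factors or with library size only.

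Of all 6142 genes called higher in SDLN, 5801 were at the floor in every skin library. The 7 other induced genes called higher in SDLN were all among these. They were Il7r, a survival receptor of T cells (at most 2 counts in a skin library, 93.2 ± 23.0 CPM in SDLN), Pik3ip1, an inhibitor of PI3 kinase (at most 1 count, 41.8 ± 7.44 CPM), Angptl4, Errfi1, Arrdc2, Klf9 and Crispld2. Angptl4 had 0 counts in all 3 skin libraries and 9.39 ± 1.16 CPM in SDLN. Klf9, a direct receptor target in many tissues, had 0 counts in skin and 1.44 ± 0.148 CPM in SDLN. Crispld2 had 0.659 ± 0.348 CPM in SDLN, under the floor of skin A (0.8 CPM) and above those of skin B (0.255) and C (0.332).

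Of 18 genes that glucocorticoids restrain, 9 were tested. In skin 3 were called higher (33.3%, beside 1.04% of all genes), and in SDLN 4 (44.4%, near the 45.3% of all genes), with a median log2 fold change of 0.85. Il1b, an inflammatory cytokine made chiefly by myeloid cells, had 609, 623 and 384 CPM in skin and 0 counts in all SDLN libraries. The chemokine genes Ccl4 (293 ± 300 against 4.84 ± 2.06 CPM) and Ccl3 (97.7 ± 45.0 against 0.487 ± 0.396 CPM) rose as well (adjusted p = 0.0125 and 0.0165 by edgeR). The T cell cytokine genes Tnf, Ifng and Il4 had 0 counts in all skin libraries and 15.8 ± 7.18, 3.52 ± 0.503 and 0.552 ± 0.180 CPM in SDLN. The level of Il4 lies under the floor of skin A (0.8 CPM) and above those of skin B (0.255) and C (0.332). The adhesion gene Vcam1 was the 4th gene higher in SDLN, with 0, 5 and 0 counts in skin.

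Genes that make, reactivate or export glucocorticoids had 6 of 9 genes tested, 0 called higher in skin by edgeR and 3 higher in SDLN. The share higher in SDLN, 3 of 6, is near the 45.3% of all genes, and 1.04% of all genes were higher in skin. Hsd11b1, the enzyme that regenerates active hormone inside cells, had 0, 83.3 and 238 CPM in skin and 300, 236 and 519 CPM in SDLN, with skin C just above SDLN B (not called, adjusted p = 0.754). Its cofactor supplier H6pd had 0 counts in all skin libraries and 12.9 ± 3.48 CPM in SDLN and was called, as were the drug and steroid exporter gene Abcb1a and the cholesterol carrier gene Star. Cyp11a1, the first enzyme of steroid synthesis, had 757, 0 and 4 counts in skin and 1, 55 and 5 counts in SDLN (not called, adjusted p = 0.188), so that its level rested on skin A alone.

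**Figure D3:**
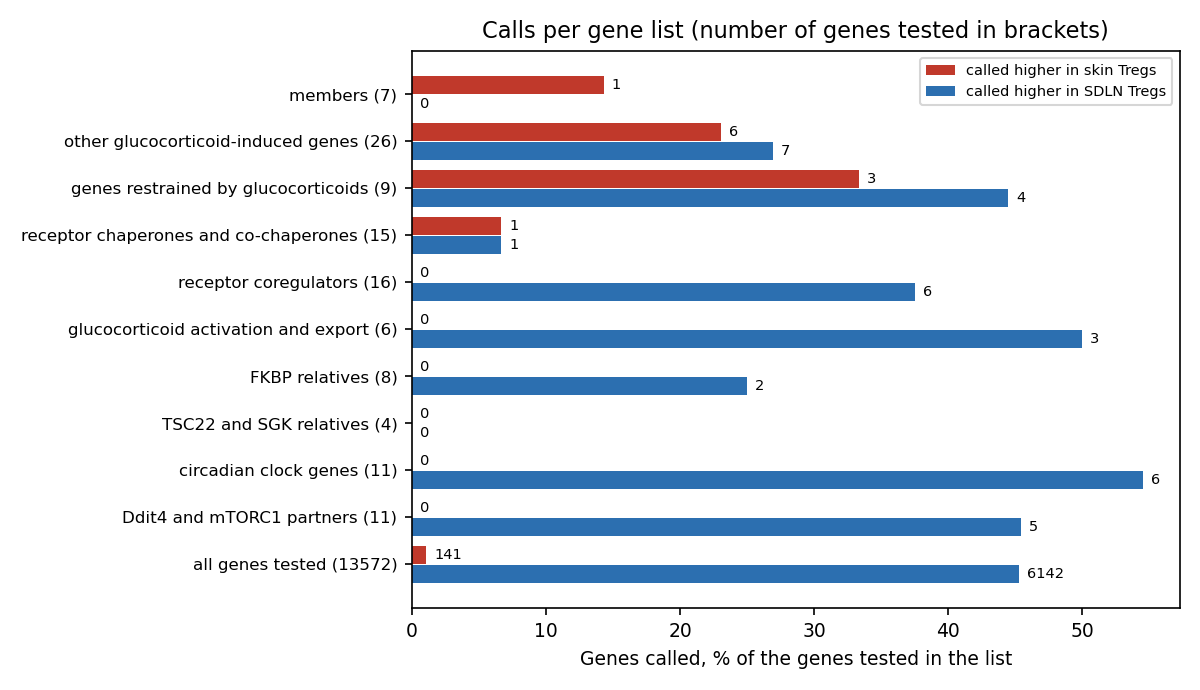
Share of the tested genes of each list that edgeR called higher in skin Tregs (red) or in SDLN Tregs (blue), in percent, with the number of genes called at each bar and the number tested in brackets. The bars of all genes tested stand at 1.04% and 45.3%, and the list of other induced genes has the 6 and 7 calls described in the text.

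**Figure D4:**
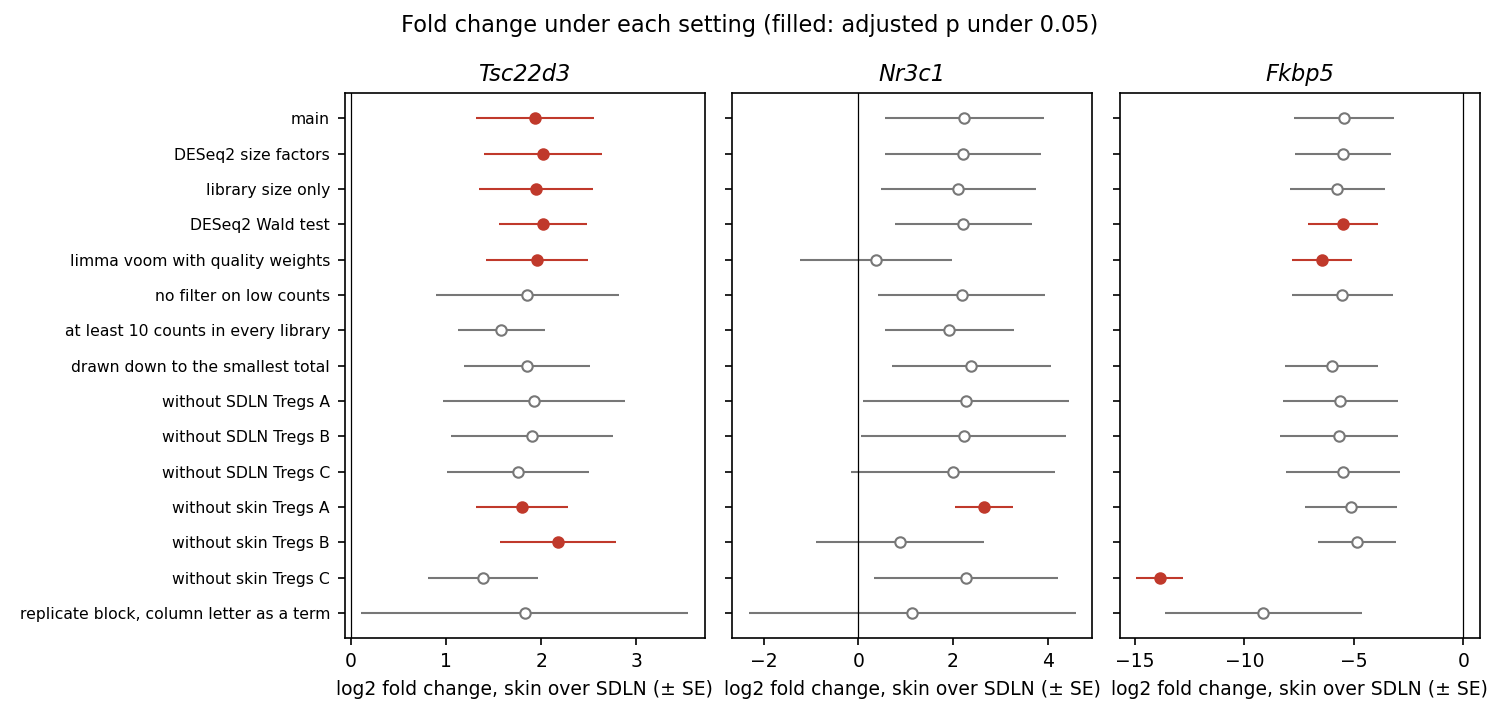
Log2 fold change (skin over SDLN) with its SE for Tsc22d3, Nr3c1 and Fkbp5 under the main setting and each alternative, filled where the adjusted p is under 0.05. Tsc22d3 stays between 1.39 and 2.18, Nr3c1 passes only without skin A, and Fkbp5 was not tested where 10 counts were required in every library.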

How the data were processed

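Raw counts per Ensembl gene were deposited for 6 libraries, 3 per tissue. The authors trimmed the reads (Trimmomatic 0.36), mapped them to GRCm38 (STAR 2.5.2b) and counted them with featureCounts (Subread 1.5.2), as the submitters' processing notes and the study's methods name these tools. The strand setting and the annotation release are not given in the sources used here, and no molecular identifiers are described, so PCR copies were counted as separate reads. Column letters A to C could not be tied to the numbered titles and name libraries only. Symbols and exon lengths came from GENCODE M21 (49056 of 49315 genes named).

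CPM were computed from the library totals. The main test was the quasi-likelihood F test of edgeR 4.0.16 in R 4.3.3, with filterByExpr, TMM factors, robust estimation, tissue as the only term, Benjamini-Hochberg adjustment over all 13572 genes and a threshold of 0.05. The SE was derived from F. Alternatives used DESeq2 1.42.0, limma 3.58.1 (voom with sample quality weights), other factors, filters and depth, left out each library in turn and, added after seeing the data, took the column letter as a block. The script was tested on simulated data.

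The 7 members and the other gene lists (18 lists and 223 genes with the members included) were chosen with earlier results of these data known. From each list, up to 4 genes called in each direction and up to 3 not called, by mean CPM, were eligible for naming. Nr3c2, Foxp3, Cd4, Cd3d, Cd3e, Cd3g, Csf1r, Cd209a, Cma1, Anxa1, Mt1, Arrdc2, Klf9, Crispld2, Per2 and Per3 were also named after their values were seen. Lists are given by counts and medians without a test, and some of their genes are not reported here. The p-values measure the spread between these pooled samples, for which separate processing is not stated.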

Additional observations from a re-analysis of the deposited data

How the results depend on the processing

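The member count called higher in skin was 1 with TMM factors in edgeR and under DESeq2 size factors, library size only, the DESeq2 Wald test and limma voom, and 0 without a filter, with at least 10 counts in every library, or with counts drawn down to the smallest total. It ranged from 0 to 2 when one library was left out, with Nr3c1 and Tsc22d3 called without skin A. That fit called 324 of 15914 genes higher in skin. The count called higher in SDLN was 0, beside 45.3% of all genes. It was 1 with the DESeq2 Wald test (Fkbp5, beside 51.9%) and 2 with limma voom (Ddit4 and Fkbp5, beside 51.6%). Over the libraries left out it was 0 to 3. Without skin B this was Ddit4, in a fit that called 7787 of 15927 genes higher in SDLN. Without skin C it was Fkbp5, Per1 and Sgk1, in a fit that called 7392 of 15913 genes. The 6 other induced genes called higher in skin became 7 with either other scaling and 9 with the DESeq2 Wald test, 4 with counts drawn down (Btg1, Btg2, Dusp1 and Nfkbia, so without Cdkn1a, Anxa1 and Mt1), 4 with at least 10 counts in every library, 3 without a filter and 3 to 8 over the libraries left out, with 3 (Cdkn1a, Dusp1 and Nfkbia) without any one of the SDLN libraries. The 7 called higher in SDLN became 0 with at least 10 counts in every library, a filter that removes genes absent from skin. It left 9 genes of the list tested, and over all 1396 genes tested it called 77 higher in skin and 13 higher in SDLN. The 7 became 5 to 10 over the libraries left out. Those fits called 71 to 324 of all genes higher in skin and 4983 to 7787 higher in SDLN.

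Per1 reversed with limma voom (-2.08), without SDLN C (-0.0078) and without skin C (-8.13). Sgk1 reversed with limma voom (-1.68) and without skin C (-7.40). Over the libraries left out, Per1 ranged from -8.13 to 1.29 and Sgk1 from -7.40 to 2.19. Apart from the filter named, the cause was not tested. The other members kept their direction in every alternative that tested them. With at least 10 counts in every library only Nr3c1 and Tsc22d3 were tested, and DESeq2 gave no adjusted p for Sgk1. Over all genes, the 141 calls higher in skin ranged from 61 (letter block) to 404 (DESeq2 Wald test), the 6142 higher in SDLN from 13 (at least 10 counts) to 7787 (without skin B), and the median log2 fold change from -8.05 to -0.02.

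Nothing ties the column letters to the replicate numbers of the labels or says that a letter marks the same mice in both tissues. Deviations from the tissue means correlated at 0.046, -0.010 and 0.0914 between same-letter libraries A, B and C over 13572 genes, and only skin C correlated best with its own letter among the skin libraries, so the letters were not taken to pair the samples. A fit with the letter as a replicate block, added after seeing the data, called 0 members in either direction, with Per1 at -6.72 and Sgk1 at -5.63, 4 other induced genes higher in skin (Btg1, Dusp1, Nfkbia and Zfp36) and 5 higher in SDLN. Over all 13572 genes that fit called 61 higher in skin and 5633 higher in SDLN. A count of 0 in a skin library allows up to 0.255 to 0.8 CPM, below the SDLN levels of all 7 members.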

Other observations

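Several genes that share pathways with the members were at 0 in all skin libraries. Of 13 circadian clock genes beside Per1, 11 were tested, 0 were called higher in skin by edgeR and 6 higher in SDLN (54.5%, beside 45.3% of all genes). The 6 were the period genes Per2 and Per3, the repressors Cry2 and Ciart, and the clock output factors Dbp and Tef. Each had 0 counts in all 3 skin libraries, against 16.6 ± 8.79 CPM for Cry2 and 11.2 ± 5.43 CPM for Dbp in SDLN Tregs. Cry1 had 502, 179 and 0.221 CPM in skin and 111, 112 and 56.0 CPM in SDLN (not called, adjusted p = 0.844). Arntl, an activator of the clock, was detected in skin C alone, at 196 CPM, as Per1 was, against 80.0 ± 7.24 CPM in SDLN.

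Of 12 partners of Ddit4 in the control of mTORC1, 11 were tested, 0 were called higher in skin by edgeR and 5 higher in SDLN, which is 45.5%, beside 45.3% of all genes. These include the kinase gene Mtor itself (at most 1 count in a skin library, 26.4 ± 7.22 CPM in SDLN) and the complex's brakes Tsc1 and Tsc2. Sesn1, a stress-induced brake, had 490, 0 and 204 CPM in skin and 195 ± 14.8 CPM in SDLN, and was not called (adjusted p = 0.997). Sgk3, the relative of Sgk1, had 651, 0 and 183 CPM in skin and 30.4 ± 9.46 CPM in SDLN (adjusted p = 0.489).

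Among markers of other skin cells, the fibroblast sum and the mast cell and granulocyte sum each stood out in a single skin library. The endothelial sum was lower in skin than in SDLN. Calls are to be read beside the 1.04% and 45.3% of all genes called higher in skin and in SDLN. Of 7 fibroblast markers 2 were tested and 0 called by edgeR, and their sum was 0, 90.6 and 0.886 CPM in skin A, B and C and 1.44 to 7.56 CPM in SDLN. Of 7 keratinocyte markers 3 were tested and 2 were called higher in SDLN. Their sum was at most 50.7 CPM in skin, all of it Epcam in skin B, and 37.6 to 42.8 CPM in SDLN. Of 5 endothelial markers 1 was tested and 0 called, with a sum of at most 25.9 CPM in skin and 139 to 173 CPM in SDLN. Of 10 mast cell and granulocyte markers 2 were tested and 1, Kit, was called higher in SDLN. The mast cell and granulocyte sum was 226 CPM in skin A, of which Cma1 alone gave 216, 0 in skin B and C, and 11.6 to 27.5 CPM in SDLN.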
